A study of Mus musculus with 2 samples.

Results

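Interleukins and their receptors were read from the RNA-seq data of dorsal root ganglion (DRG) neurons, the sensory neurons that carry touch, temperature and pain from the body to the spinal cord. The genes were chosen by name alone: every symbol that starts with Il and a digit was kept, except Il4ra, Il13ra1, Il13ra2, Il2rg, Il31ra, Il1rl1, Il6, Il6st, Il6ra, Il11ra1 and Il34. This left 72 genes on 101 transcript rows, out of 24411 genes on 35034 rows. By role, 35 of the 72 encode ligands, 28 encode receptor chains, 4 encode inhibitors, 2 encode neuronal adhesion relatives of the IL-1 receptor, and the others are Il16, Il4i1 and the noncoding RNA Il1bos.

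Interleukins are secreted proteins with which immune and tissue cells change each other's activity, and most act through receptors built from a private chain, which recognizes the ligand, and a chain shared with other interleukins. Receptors of the IL-1 family signal through MyD88 and IRAK kinases, those of the IL-17 family through the adaptor Act1, and most of the others through Janus kinases and STAT factors. In sensory neurons, interleukins such as IL-1β are known to alter excitability and pain, and most interleukin receptors need both a private and a signalling chain to respond to their ligand.

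Both groups were 6- to 8-week-old male C57BL/6J mice (C57BL/6 in the labels) with no transgene. The control group received, into the peritoneum on days 0 and 14, 200 µl of saline with 50% alum, an adjuvant made of an aluminium salt, and the other group received the same alum plus KLH (keyhole limpet hemocyanin, a strongly antigenic mollusc protein) at 100 µg. Thoracic and lumbar ganglia were taken on day 28, digested, spun through albumin to enrich neurons and depleted of B cells with beads. Cells of 10 mice were pooled into 1 library per group, so no value has a replicate, no test between the groups was possible, and a difference between the pools is a difference between 2 libraries. The title of the control library calls it both naïve and alum alone, and it is named here the alum pool after the injection that the study's methods describe. Values are TPM (transcripts in every 1000000), a scale corrected for transcript length, summed over the rows of a gene and given first for the alum pool and then for the alum + KLH pool.

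The labelled cell type was checked against marker genes. All 8 neuronal markers were above 3 TPM in both pools, and their summed level was 17745 and 17129 TPM. Glial RNA was also present, with sums of 1724 and 1600 TPM over 5 satellite glia markers and of 1883 and 1855 TPM over 6 Schwann cell markers. The 5 fibroblast markers summed to 85.4 and 85.7 TPM, most of it Dcn (63.8 and 62.6 TPM). Endothelial markers, 5 in number, summed to 10.2 and 7.24 TPM. Most leukocyte markers were low: the 12 macrophage markers summed to 12.7 and 11.8 TPM, the 7 T cell markers to 14.2 and 14.7 TPM, and the 5 B cell markers to 1.55 and 0.999 TPM. Most of the T cell sum was Cd8a (9.20 and 9.79 TPM). Cd3d was at 2.97 and 3.13 TPM, while Cd3e was at 0.186 and 0.0401 TPM and Cd3g was listed at 0 in both. The 6 mast cell and basophil markers summed to 62.7 and 59.5 TPM, nearly all of it Kit (58.1 and 56.2 TPM), a receptor that sensory neurons are also known to express. The neutrophil list had the largest ratio between the pools of the 10 marker lists, at 44.6 TPM in the alum pool and 5.68 TPM in the alum + KLH pool, nearly all of it S100a8 (32.3 and 4.59 TPM) and S100a9 (11.7 and 0.962 TPM), while Elane was listed at 0 in both.

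Few interleukin genes reached the level that the study's methods take as detection, which is more than 3 TPM. It was passed by 14 of the 72 genes (19.4%) in each pool, and they were the same 14 genes. Of all genes, 46.9% passed it in the alum pool and 46.3% in the alum + KLH pool. The median gene of the family was at 0.521 and 0.416 TPM, against 2.15 and 2.00 TPM over all genes. A further 9 genes lay above 1 TPM in one or both pools without passing 3 TPM. Another 39 were at or below 1 TPM in both without being at 0 in both, and 10 were listed at 0 in both. Of all 24411 genes, 2382, 5566 and 4815 fell in these classes, in the same order, so zeros were not particular to the family. The summed level of the family was 259.6 and 259.4 TPM, and 3 genes, Il10rb, Il18 and Il7, made up 52.5% and 51.2% of it. In these mixed preparations, fewer cells of a type and less RNA per cell cannot be told apart, and the cell that made an RNA is not known.

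**Figure D1:**
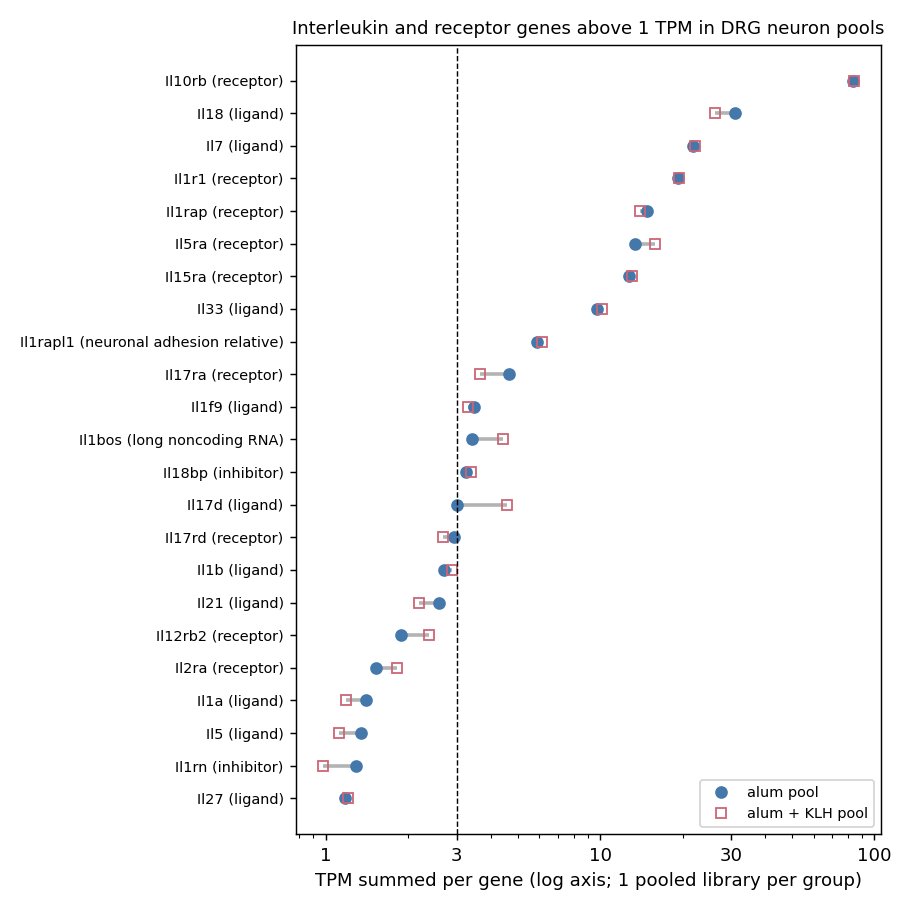
Level of the 23 genes that exceeded 1 TPM in either pool, on a log axis of TPM summed per gene. Circles are the alum pool and squares the alum + KLH pool, 1 library each, and the dashed line marks 3 TPM, with 14 genes to its right in both pools.

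The genes above 3 TPM differed little between the pools. Differences are log2 ratios, alum + KLH over alum, of TPM + 1, a pseudocount that understates the change of low genes. None of the 14 genes was at least 2-fold apart, where 191 of the 11648 genes (1.64%) that exceeded 3 TPM in either pool were. Their ratios ran from -0.28 for Il17ra to 0.47 for Il17d, with a median of 0.03 against -0.02 over all genes with the same filter. A ratio above 0 was found for 10 of the 14 and below 0 for 4. Of the 11648 genes, 43.6% had a ratio above 0 and 56.4% below. When TPM were taken relative to the housekeeping gene Hprt, which was itself at 989 and 1049 TPM, 7 of the 10 family genes above 0 moved below it. The direction of the smaller differences thus depended on the scale. Taking TPM relative to Hprt lowers the ratio of every such gene, and the share of all genes that it moved below 0 was not counted. The yardstick for a ratio was its SD among the 200 genes closest in level, which describes how far genes of like level lay apart in these 2 libraries and is no error between mice. Il17d, Il18 and Il5ra, 3 of the 14, were further apart than this SD, a share near the 19.5% of all genes above 3 TPM that were.

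**Figure D2:**
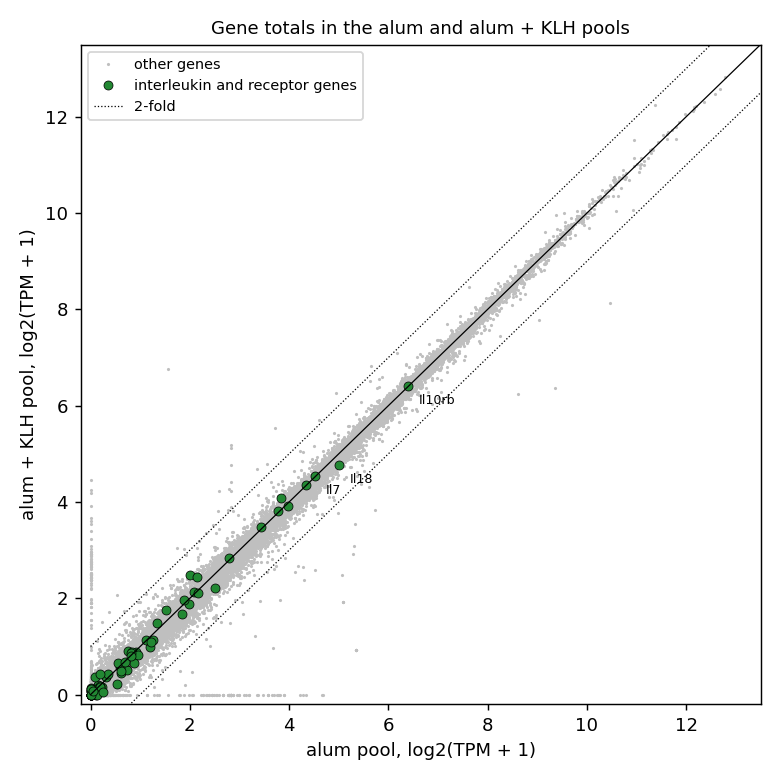
Level of every gene in the alum + KLH pool against its level in the alum pool, both as log2(TPM + 1) of gene totals. Green points are the 72 interleukin and receptor genes, grey points the other genes, the solid line equality and the dotted lines a 2-fold difference on this scale. None of the green points above 3 TPM lies outside the dotted lines.

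The ligands above 3 TPM were led by members of the IL-1 family, whose proteins are mostly stored inside the cell. Il18, which encodes a cytokine released after cleavage by caspase-1, was at 31.01 TPM in the alum pool and 26.3 TPM in the alum + KLH pool. Its log2 ratio of -0.23 exceeded the SD of 0.15 among genes of like level. Il18 lies on chromosome 9 at chr9:50554827-50581840 (GRCm38, plus strand).

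Il7, the growth factor that keeps T cells and their precursors alive, was the next highest ligand at 21.9 and 22.2 TPM. These are the same level within the SD among genes like it (log2 ratio 0.02, SD 0.15). Il33, which encodes a nuclear alarmin released from damaged cells, was at 9.74 and 10.1 TPM, again without a difference beyond that SD (0.05, SD 0.22). Il1f9, the gene of IL-36γ, lay just above the limit at 3.48 and 3.29 TPM.

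Il17d, an IL-17 family ligand that is made in many tissues, had the largest difference of the 14. It was at 3.01 TPM in the alum pool, barely inside the limit, and at 4.56 TPM in the alum + KLH pool. The log2 ratio of 0.47 compared with an SD of 0.39 among genes of like level. The ratio remained above 0 relative to Hprt.

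Other ligands stayed below the limit. Of the classical IL-1 ligands, which drive fever and inflammation, Il1b was at 2.69 and 2.89 TPM and Il1a at 1.40 and 1.19 TPM. Neutrophil markers were far apart between the pools while Il1b, a gene that neutrophils and macrophages also express, was not, and the part of these cells in its level was not tested. Il21, a product of helper T cells that acts on B cells, was at 2.59 and 2.19 TPM. Il5, the growth factor of eosinophils, was at 1.34 and 1.12 TPM. Il27, the p28 chain of IL-27, was at 1.17 and 1.20 TPM, and its partner chain Ebi3 at 0.234 and 0.252 TPM.

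Among the cytokines of the list that are known from T helper cells, Il21 and Il5 were above 1 TPM, as given above, and the others were below it. Il17a and Il17f, which define Th17 cells, and Il22 and Il9 were listed at 0 in both pools, as were Il17c, Il20, Il1f5, Il1f6 and Il1f10 among the ligands and Il12rb1 among the receptors. Of the other type 2 cytokines, Il4 was at 0.270 and 0.338 TPM, and Il13 was listed at 0 in the alum pool and at 0.0488 TPM in the alum + KLH pool. Il2, which expands T cells, was at 0.0747 TPM in the alum pool and listed at 0 in the other. Il10, which restrains macrophages, was at 0.880 and 0.847 TPM, and Il12a, Il12b and Il23a, the chains of IL-12 and IL-23, were all between 0.102 and 0.148 TPM. A low level here gives no sign of whether such a gene changed, because the files hold no read counts from which an error could be set.

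Among the receptor chains within the name rule, Il10rb stood alone in level. It encodes the chain shared by the receptors of IL-10, IL-22 and the lambda interferons, lies on chromosome 16 at chr16:91406164-91425834, and was at 83.4 and 84.3 TPM, exceeded by 10.2% and 10.1% of all genes. In the annotation 569 of its 3808 exonic bases also belong to Gm21970 on the same strand, a gene with no row in the files. Of the 1820 stretches of 31 bases in the only row of Il10rb, 29.8% also occur in transcripts of other genes in the same orientation. The ligand-specific partners of Il10rb were low: Il10ra was at 0.631 and 0.448 TPM and Il22ra1 at 0.245 and 0.292 TPM. Il20ra and Il20rb, which form the receptor of IL-20, were also below 1 TPM.

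Both chains of the IL-1 receptor were above 3 TPM. Il1r1, the ligand-binding chain, was at 19.3 TPM in each pool (log2 ratio 0.00), and Il1rap, the accessory chain needed for signalling, was at 14.9 and 14.02 TPM. The accessory chain also serves IL-33 and IL-36, but the private chains of those receptors were low, with Il1rl2 at 0.234 and 0.315 TPM and Il1rl1, which is outside the name rule, at 0.745 and 0.714 TPM. The receptor of IL-18 was low in both chains: Il18r1 was at 0.794 and 0.849 TPM and Il18rap at 0.115 and 0.0982 TPM.

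Il5ra, the private chain of the receptor on eosinophils, was at 13.4 TPM in the alum pool and 15.9 TPM in the alum + KLH pool. The log2 ratio of 0.23 was barely larger than the SD of 0.22 among genes of like level. The signalling chain it needs, Csf2rb, was at 1.27 and 0.965 TPM. Il15ra, which presents IL-15 to neighbouring cells, was at 12.7 and 13.0 TPM, while Il15 itself was at 0.531 and 0.366 TPM and the signalling chain Il2rb at 0.0473 and 0.0203 TPM. Il2ra, the chain that gives the IL-2 receptor its high affinity, was at 1.52 and 1.82 TPM, and Il7r and Il9r were below 0.4 TPM in both pools.

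Il17ra, the chain common to receptors of the IL-17 family, was at 4.65 and 3.66 TPM, the lowest log2 ratio of the 14 genes at -0.28 but within the SD of 0.55 at that level. Il17rd, a relative that also dampens growth factor signals, was just outside the limit at 2.93 and 2.68 TPM. The private chains Il17rb (0.660 and 0.432 TPM), Il17rc (0.515 and 0.489 TPM) and Il17re (0.455 and 0.167 TPM) were lower. In the IL-12 family, Il12rb2 was at 1.87 and 2.38 TPM, and 1519 of its 3794 exonic bases lie opposite exons of Serbp1, a gene at 88.5 and 94.4 TPM. The libraries were stranded, but whether quantification used the strand is not given in the sources used here, so reads from this overlapping part may belong to either gene.

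A soluble inhibitor and an adhesion protein were also above the limit. Il18bp, which encodes a secreted protein that traps IL-18, was at 3.25 and 3.38 TPM. The other inhibitors were lower: Il1rn, the IL-1 receptor antagonist, was at 1.29 and 0.976 TPM, the decoy receptor Il1r2 at 0.952 and 0.777 TPM, and Il22ra2, which traps IL-22, at 0.831 and 0.579 TPM. Il1rapl1, on the X chromosome, encodes a synaptic adhesion protein rather than a cytokine receptor, and was at 5.91 and 6.15 TPM. Its relative Il1rapl2 was at 0.767 and 0.811 TPM. Il1bos, a noncoding RNA read from the strand opposite Il1b, was at 3.41 and 4.43 TPM, higher than Il1b itself, and 25 exonic bases are common to both loci.

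The remaining members were below 1 TPM in both pools. Il11, a ligand of the IL-6 group, was at 0.694 and 0.868 TPM and Il3, a growth factor of blood cell precursors, at 0.764 and 0.735 TPM. Il16, the precursor of a chemoattractant for CD4+ cells, was at 0.561 and 0.502 TPM, and Il19, an IL-10 relative, at 0.0682 and 0.295 TPM. Of receptor chains not yet given, Il23r was at 0.618 and 0.596 TPM, Il21r at 0.468 and 0.577 TPM, and Il3ra the lowest of these at 0.192 and 0.0414 TPM. Il11ra2 was at 0.0137 and 0.0341 TPM, uncertain because it is a near copy of Il11ra1. Il1f8, Il17b, Il24, Il25 and Il4i1 were listed at 0 in the alum pool and were at most at 0.0945 TPM in the other, while Il31 was at 0.0898 TPM in the alum pool and listed at 0 in the other.

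The 3 TPM limit ran through a dense group of genes. Just inside it lay Il17d in the alum pool (3.01 TPM), Il18bp (3.25 and 3.38 TPM) and Il1f9 in the alum + KLH pool (3.29 TPM). Just outside it lay Il17rd (2.93 and 2.68 TPM), Il1b (2.69 and 2.89 TPM) and Il21 (2.59 and 2.19 TPM).

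Ligands and receptors were then set side by side for 20 receptor complexes, a list drawn up after the values had been seen. The IL-1 receptor was the only one of the 20 with all of its chains above 3 TPM, and both of its ligands, Il1a and Il1b, were below that limit. Another 10 complexes had some chains above the limit and 9 had none. The list left out the receptors of IL-4 and IL-13, among others, although Il4 and Il13 are in the family. Their chains Il4ra (5.68 and 4.31 TPM) and Il13ra1 (25.3 and 24.4 TPM), outside the name rule, were both above the limit. The single complete complex thus holds for the 20 listed only. The 3 most abundant ligands had receptors with a chain below the limit: against Il18 stood Il18r1 and Il18rap, against Il7 stood Il7r at 0.139 and 0.341 TPM and Il2rg at 2.38 and 2.15 TPM, and against Il33 stood Il1rl1. IL-27 had a shared chain, Il6st, at 329 and 299 TPM and a private chain, Il27ra, at 0.144 and 0.124 TPM. The receptor genes that passed the limit in an incomplete complex were thus mostly the shared chains Il10rb, Il1rap, Il17ra and Il6st, with Il5ra and Il15ra as private ones.

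**Figure D3:**
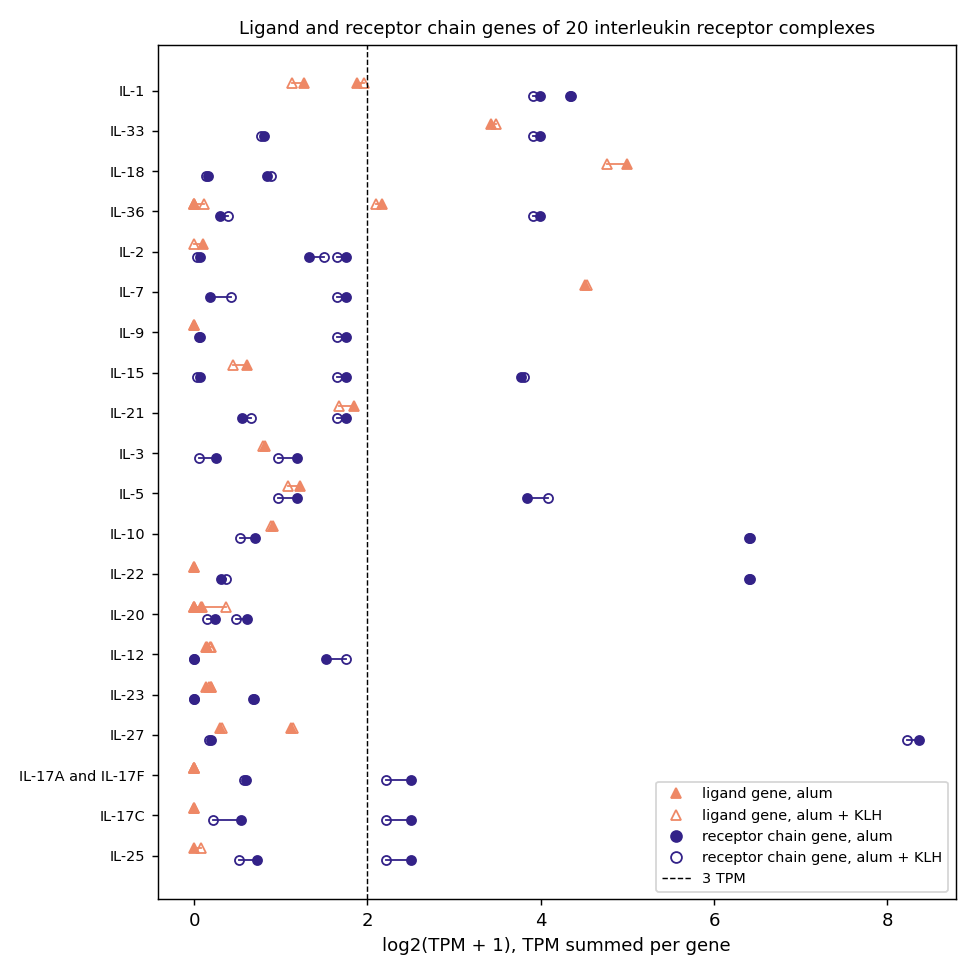
Levels of the ligand genes (triangles) and receptor chain genes (circles) of 20 interleukin receptor complexes as log2(TPM + 1), filled for the alum pool and open for the alum + KLH pool, with the dashed line at 3 TPM. Only in the IL-1 row do all circles lie to the right of the line, and in the IL-18 and IL-7 rows the ligand lies to the right and every receptor chain to the left.

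A list of 50 partner genes covered the proteins around these receptors. Of the 33 adaptors, kinases, STAT factors and feedback regulators that act inside the cell, 24 (72.7%) were above 3 TPM in both pools. Of the 17 inflammasome genes, further subunits and ligands, and synaptic partners, 5 (29.4%) were. Over all genes, 11108 of 24411 passed in both pools. None of the 29 partner genes that passed was at least 2-fold apart, against the same 1.64% over all genes. The log2 ratios of the 24 had a median of -0.07 and ran from -0.25 for Myd88 to 0.08 for Socs3, with 6 above 0 and 18 below, where 43.6% of all genes above 3 TPM were above 0 and 56.4% below. All 24 were below 0 when taken relative to Hprt, so the 6 positive signs were lost on that scale. Because Hprt was higher in the alum + KLH pool, that scale lowers the ratio of every such gene. The share of all genes below 0 on it was not counted. Over the 29, the ratios ran from -0.31 for Ptprs to 0.11 for Ptprd. Of the 11 IL-1 receptor adaptors and kinases, 8 passed the limit, led by Tollip at 142.6 and 136.8 TPM and Map3k7 at 49.8 and 47.8 TPM. Myd88, the adaptor that the IL-1 receptor recruits first, was at 9.96 and 8.20 TPM, and Sigirr, which restrains that receptor, was listed at 0 in the alum pool and at 0.0281 TPM in the other. Of the 3 IL-17 receptor adaptors, Traf3 (16.5 and 17.3 TPM) and Traf3ip2, the gene of Act1 (8.18 and 8.37 TPM), passed.

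Janus kinases and STAT factors were uneven. Jak1 was at 399 and 415 TPM and Jak2 at 79.8 and 79.5 TPM, but Jak3, which pairs with the common gamma chain Il2rg, was at 0.205 and 0.176 TPM. Of 7 STAT factors, 5 passed, with Stat3, which carries the signals of IL-6 and IL-10, the highest at 188 and 166 TPM. Of 8 feedback regulators, 7 passed, with Socs2 at 146 and 132 TPM and Ptpn11 at 61.0 and 60.9 TPM.

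Of 8 listed genes of the inflammasome, the complex that matures IL-1β and IL-18, only the caspases were above 3 TPM. Casp1 was at 49.9 and 43.5 TPM and Casp4 at 40.1 and 36.2 TPM, while the 6 others of the 8 genes, the sensor Nlrp3 (0.187 and 0.134 TPM) and the adaptor Pycard (0.848 and 0.910 TPM) among them, were below 3 TPM. None of 6 further subunits and ligands outside the name rule passed, the highest being Csf2rb2 at 2.65 and 1.71 TPM. All 3 receptor phosphatases of the group that binds IL-1 receptor relatives at synapses passed: Ptprd was at 22.8 and 24.7 TPM, Ptprf at 17.7 and 14.5 TPM and Ptprs at 11.4 and 9.005 TPM.

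The total of a gene can hide exchange between its transcript rows, and Il33 showed it most plainly. Its total was 9.74 and 10.1 TPM, but the row NM_001164724 was at 8.77 TPM in the alum pool and 3.73 TPM in the alum + KLH pool, while the row NM_133775 was at 0.978 and 6.42 TPM. The rows start at different first exons on chromosome 19, at 29945790 and 29925114 on the plus strand, and encode the same 266 codons. Only 66 of the 2514 stretches of 31 bases in the first row (2.63%) and 59 of 2507 in the second (2.35%) are absent from the other row, so the split between them rested on reads from these stretches, whose number the files do not give.

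Il1r1 has a similar arrangement and kept its order. The row NM_008362, which starts at 40225080 on chromosome 1, was at 15.8 and 17.2 TPM, and the row NM_001123382, which starts at 40266586, was at 3.44 and 2.09 TPM. The longer row carries 22.1% of stretches of its own and the shorter 6.14%. Il15ra had 9 rows that together kept its total of 12.7 and 13.0 TPM, but NM_001271501 was at 0.00547 and 4.14 TPM and NM_133836 at 1.87 and 0.00363 TPM. Each of the 9 had at most 98 stretches of its own, and NM_133836, NM_001271500, NR_073191 and NR_073192 had 0. Every stretch of NM_133836 thus also occurs in another row of the gene. In Il1rap, by contrast, the row NM_008364 with 570 codons was at 12.8 and 12.1 TPM and no other row exceeded 1.13 TPM. Il4 was placed on NM_021283 in the alum pool (0.270 TPM) and on the noncoding row NR_027491 in the other (0.338 TPM), each row being listed at 0 where the other was not.

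**Figure D4:**
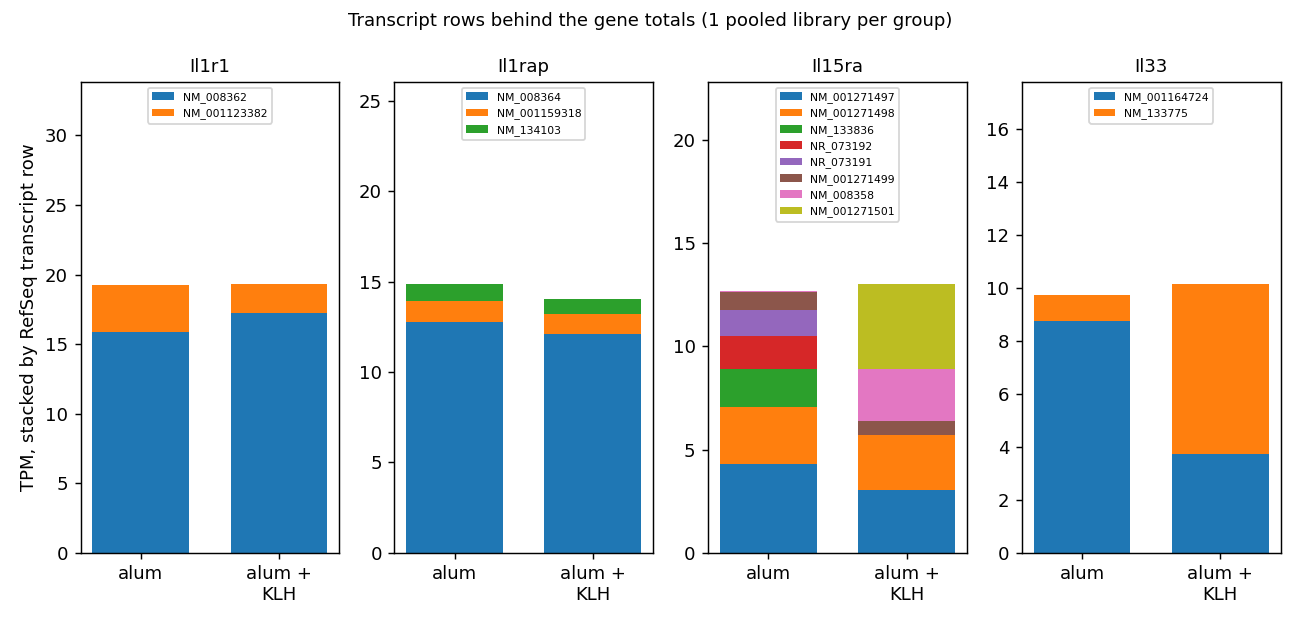
TPM of the transcript rows of Il1r1, Il1rap, Il15ra and Il33, stacked for each pool, with rows never above 0.5 TPM left without a legend entry. Bars of a gene reach nearly the same height in both pools, while the row colours change places in Il33 and Il15ra and not in Il1r1 and Il1rap.

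The rows of Il33 and of Il1r1 begin at different starts, and the 250 bases before each start are shown to let them be compared, from RefSeq promoter records on GRCm38.p6, plus strand, written 5′ to 3′. Capitals mark matches, on either strand, to 6 motifs that were chosen after the values had been seen, and the marked matches do not overlap. The TATA box (TATAAA) is held by 12.4% of all 32851 RefSeq windows of the same 250 bases before a start. The GC box, read by Sp1 and spelled GGGCGG, is held by 32.7% of them. For the CCAAT box the share is 33.8%. The AP-1 motif was searched as TGANTCA, which 6.75% of the windows hold. The STAT motif, called GAS and searched as TTCNNNGAA, is in 7.02%. The core of the cAMP response element, TGACG, is in 17.8%. A match of letters describes the window and shows no binding.

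Il33 chr19:29945540-29945789, start of NM_001164724: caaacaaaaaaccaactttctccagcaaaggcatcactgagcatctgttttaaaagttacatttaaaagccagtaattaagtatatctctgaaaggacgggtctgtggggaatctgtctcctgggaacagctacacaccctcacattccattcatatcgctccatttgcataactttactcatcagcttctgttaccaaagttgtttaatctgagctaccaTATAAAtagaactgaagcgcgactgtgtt
Il33 chr19:29924863-29925112, start of NM_133775: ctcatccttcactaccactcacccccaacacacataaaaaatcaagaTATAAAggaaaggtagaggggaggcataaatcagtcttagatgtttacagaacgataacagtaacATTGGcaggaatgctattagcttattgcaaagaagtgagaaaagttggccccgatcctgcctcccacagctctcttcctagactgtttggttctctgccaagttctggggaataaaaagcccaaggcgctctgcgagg
Il1r1 chr1:40224830-40225079, start of NM_008362: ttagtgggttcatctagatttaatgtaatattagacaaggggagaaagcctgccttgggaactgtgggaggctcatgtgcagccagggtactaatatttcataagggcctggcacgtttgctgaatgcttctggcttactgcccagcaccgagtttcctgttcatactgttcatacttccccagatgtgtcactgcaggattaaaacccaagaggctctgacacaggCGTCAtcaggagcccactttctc
Il1r1 chr1:40266336-40266585, start of NM_001123382: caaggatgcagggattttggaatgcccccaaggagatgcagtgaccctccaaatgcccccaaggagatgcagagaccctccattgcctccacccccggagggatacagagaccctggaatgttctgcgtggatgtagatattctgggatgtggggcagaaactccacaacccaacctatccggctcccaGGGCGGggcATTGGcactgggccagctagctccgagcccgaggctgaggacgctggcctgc

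The Il33 window of NM_001164724, the higher row in the alum pool, holds TATAAA 29 bases before the start, where a TATA box is usually found. The window of NM_133775 holds it 203 bases before the start, with an inverted CCAAT at 138 bases. The Il1r1 windows differ too: that of NM_008362, the higher row in both pools, holds an inverted TGACG at 23 bases, and that of NM_001123382 a GC box at 61 bases and an inverted CCAAT at 52 bases. Each Il33 window has 4 CpG dinucleotides, and the Il1r1 windows have 3 and 7.

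In windows of the same length, promoters of the family held few CpG dinucleotides. RefSeq windows were matched for 56 of the 72 genes, 69 windows in all, with a median of 3 CpG against 6 over all windows. The 14 windows of 11 genes above 3 TPM had a median of 4 and a range of 1 to 30, whereas the 11072 windows of all genes above 3 TPM had a median of 16. No window was matched for Il10rb, the highest gene of the family, or for Il7 and Il17ra, so these are missing from that median. TATAAA was found in 17.4% of the family's windows against 12.4% of all, TGANTCA in 17.4% against 6.75% and TTCNNNGAA in 11.6% against 7.02%. The other 3 motifs were found less often than in all windows, the GC box in 21.7% against 32.7%, CCAAT in 26.1% against 33.8% and TGACG in 13.0% against 17.8%. These shares are descriptions without a test.

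All 72 genes were placed in the GENCODE annotation of GRCm38. Of the 14 genes above 3 TPM, 4 lie in 6 gene clusters of the family and 10, Il10rb, Il18 and Il7 among them, lie outside these. The clusters were picked by hand and hold 24 of the 72 genes. The 4 of 24 is near the share of the whole family, 14 of 72 (19.4%). The IL-1 receptor cluster on chromosome 1 (chr1:40074079-40551705) holds 5 of the genes, of which Il1r1 alone was above 3 TPM. The cluster of IL-36 genes and Il1rn on chromosome 2 (chr2:24153161-24351494) holds 6, of which Il1f9 alone passed, and in the pair of Il1a and Il1b with Il1bos (chr2:129299610-129375748) the noncoding RNA alone did. None of the 4 genes of the IL-10 cluster (chr1:130882074-131024974) or the 4 of the type 2 cytokine cluster on chromosome 11 (chr11:53602982-54267277) passed. Il2ra and Il15ra are neighbours on chromosome 2 within chr2:11642807-11734317, and Il15ra alone was above the limit. Exons of 11 of the 23 genes above 1 TPM overlap those of another gene, among them Il5, with 417 bases opposite Gm12214. The overlaps of the 11 ran from 25 bases in Il1b and Il1bos to 1519 in Il12rb2. Of the whole family 18 of 72 overlap another gene, and the share over all genes was not counted.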

How the data were processed

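Each library was made by the authors from the pooled DRG neurons of 10 mice with a stranded mRNA kit. The submitters' processing notes name bcl2fastq, cutadapt, kallisto and the mm10 build, and the versions and the strand setting of kallisto are not given in the sources used here. In the deposited files, each RefSeq transcript has a value in TPM: the authors' estimate of reads per transcript is divided by its length and scaled to a total of 1000000. Read counts are not part of the files, so the depth and its precision are unknown, and reads that fit several transcripts were already divided.

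TPM were summed per gene, detection was set at 3 TPM, and log2 ratios used a pseudocount of 1 TPM. The SD beside a ratio is that over the 200 gene totals of most similar mean log2(TPM + 1), and no test was made with 1 library per group. Every gene of the family above 1 TPM in at least one pool was named, with the ligands and receptors that belong to it, the genes at 0, those between 2 and 4 TPM, and the partner genes at the ends of their ratios and the highest of each role, except for a partner gene that is not reported here. Genes, roles, partners and markers were chosen with earlier results of these data known, and the list of receptor complexes and the motifs after these values had been seen. The alternatives tried were 0.1, 1 and 10 TPM as the threshold, 0.1 and 0.5 TPM as the pseudocount, the highest row in place of the sum, a common median of the pools (their median ratio was 0.994 over 8126 genes above 10 TPM), TPM relative to Hprt, and other filters on low values.

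Positions came from GENCODE M21 (GRCm38, the assembly of mm10) and promoter windows from RefSeq. numpy 2.4.6 and pandas 2.3.3 were run under Python 3.11.15, with plots from matplotlib 3.10.9, and the calculations were tested on simulated data.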

Additional observations from a re-analysis of the deposited data

How the results depend on the processing

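With 1 library per group, no setting shows the error between mice, and no replicate could be left out. No paired analysis was possible because each group has a single library. At thresholds of 0.1, 1 and 10 TPM, 50, 23 and 7 of the 72 genes passed in the alum pool and 49, 22 and 8 in the alum + KLH pool, and at 0.1 TPM 46 of the 50 partner genes passed in each pool. The number of complexes with every chain present was 13 at 0.1 TPM and 1 at 1 and 10 TPM, thresholds chosen after seeing the data. With the highest row of each gene in place of the sum, 1 gene was at least 2-fold apart, Il33 with a log2 ratio of -1.05, and Il15ra moved to -0.39, both genes whose rows trade values. The other 113 of 115 alternative values of the 23 genes above 1 TPM moved by less than the SD among genes of like level, but the sign changed in 10 of the 115, 8 of them relative to Hprt. The median log2 ratio of the family ran from -0.05 relative to Hprt to 0.04 after rescaling, so no direction of the family as a whole held over all scales. Without read counts, the precision of values under about 1 TPM is unknown.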
